A study of Rattus norvegicus with 8 samples.

Results

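Chemokines are small secreted or membrane-anchored proteins that direct the movement of leukocytes and other cells along gradients. They act through receptors coupled to G proteins, while the atypical receptors bind chemokines, internalize them, and clear them without G protein signaling. Inflammatory chemokines are induced by injury and infection, and homeostatic ones are made in resting tissue by lymphatic vessels, fibroblasts, and epithelium.

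The genes described here were all protein-coding genes of the expression table with the symbol of a chemokine or of a chemokine receptor, except *Ccl2*, *Ccl7*, *Ccl12*, and *Ccr2*. They numbered 51 of the 32883 genes in the table, and the symbol alone decided membership. There were 31 ligands (17 of the CC, 12 of the CXC, 1 of the XC, and 1 of the CX3C class) and 20 receptors (9 CC, 6 CXC, 1 XC, 1 CX3C, and 3 atypical). RNA was sequenced from the right Achilles tendon of wild-type male Sprague-Dawley (SD) rats aged 8 to 10 weeks, 1 library per rat. The 4 rats of the running group ran uphill on a treadmill for 1 hour and were killed 12 hours later (12 hours p.r., post-running), and the 4 rats of the naïve control group (NC) stayed in their cages and were killed at the same time. The comparison asks how the tendon differs from rest 12 hours after 1 run, and no other time point was analysed here. Whole tendon was used, so fewer cells of a type and less RNA per cell cannot be told apart in any value that follows.

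The libraries held 7350509 to 12951397 reads counted on genes, and 37 to 44 of the 51 genes had at least 1 read in a given rat. Levels are given in CPM (reads of a gene per 1e+06 reads of the scaled library). Markers of tenocytes, the resident fibroblasts of tendon, summed to 16273 CPM in 12 hours p.r. replicate 3 and to between 27363 and 48543 CPM in the other 7 rats. The library of 12 hours p.r. replicate 3 stood apart, with 57149 CPM summed over 9 skeletal muscle markers against 1650 to 10334 CPM in the other 7. Cartilage and bone markers summed to 397 CPM in 12 hours p.r. replicate 1 and to 1168 CPM in NC replicate 3, and to between 4.17 and 18.1 CPM elsewhere. Values without these rats are given below where a difference rested on them.

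The promoters of 3 ligands are shown, since 2 of these genes had the smallest p values among the ligands, *Cx3cl1* and *Ccl24*, and the third, *Cxcl10*, was at a high count in 1 rat only. Each run is the 250 bases before the RefSeq start of the gene in the GRCr8 assembly, 5′ to 3′ on the strand of the gene, with chr19:10242821-10243070 on the minus strand for *Cx3cl1*, chr12:26737173-26737422 on the plus strand for *Ccl24*, and chr14:15988816-15989065 on the plus strand for *Cxcl10*. Capitals mark letters that match a TATA box (TATAAA), an NF-κB-like motif (GGG, 5 bases of any kind, and CC), or a STAT-binding GAS motif (TTCNNNGAA) on either strand.
Cx3cl1: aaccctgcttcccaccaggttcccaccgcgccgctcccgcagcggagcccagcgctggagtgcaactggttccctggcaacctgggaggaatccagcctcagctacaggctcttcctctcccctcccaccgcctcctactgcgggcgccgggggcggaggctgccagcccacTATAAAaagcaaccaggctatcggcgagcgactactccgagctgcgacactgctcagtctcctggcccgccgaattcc
Ccl24: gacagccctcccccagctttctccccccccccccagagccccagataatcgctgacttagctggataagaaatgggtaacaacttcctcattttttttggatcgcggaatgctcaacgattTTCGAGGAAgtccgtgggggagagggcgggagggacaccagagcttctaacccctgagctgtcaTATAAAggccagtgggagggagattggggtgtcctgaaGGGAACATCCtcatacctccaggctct
Cxcl10: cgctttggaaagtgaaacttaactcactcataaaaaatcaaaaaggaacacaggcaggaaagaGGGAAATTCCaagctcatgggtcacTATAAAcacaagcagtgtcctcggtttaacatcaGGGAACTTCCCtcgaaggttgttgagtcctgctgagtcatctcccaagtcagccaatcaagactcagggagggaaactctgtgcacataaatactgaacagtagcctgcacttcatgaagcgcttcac
Counted from the first base printed, the *Cx3cl1* run held TATAAA at bases 173 to 178 and neither of the other motifs. The *Ccl24* run held a GAS match at bases 122 to 130, TATAAA at 186 to 191, and an NF-κB-like match at 224 to 233. The *Cxcl10* run held an NF-κB-like match at bases 64 to 73 and a pair of overlapping ones at 123 to 132 and 124 to 133, with TATAAA at 89 to 94. RefSeq gave such a run for 39 of the 51 genes. The NF-κB-like letters were in 20 of these 39 (51.3%) and in 42.3% of all 33469 runs of this length, TATAAA in 9 (23.1%) and in 12.9%, and the GAS letters in 4 (10.3%) and in 7.67%. These matches describe letters and are not evidence of binding.

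The tendon held chemokine transcripts of very unequal level. In the authors' FPKM (fragments scaled by gene length and by library), which allow levels to be compared between genes, 7 ligands averaged at least 10 over the 8 rats, 12 lay between 1 and 10, 6 between 0.1 and 1, and 3 under 0.1, and 3 had no read. Among the receptors the same classes held 3, 6, 5, and 5 genes, and 1 receptor had no read. The 4 genes without a read in any rat were *Ccl25*, *Ccl26*, *Cxcl3*, and *Ccr8*, and a count of 0 allows up to 0.227 to 0.395 CPM per rat (3 reads, counting error only).

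**Figure D1:**
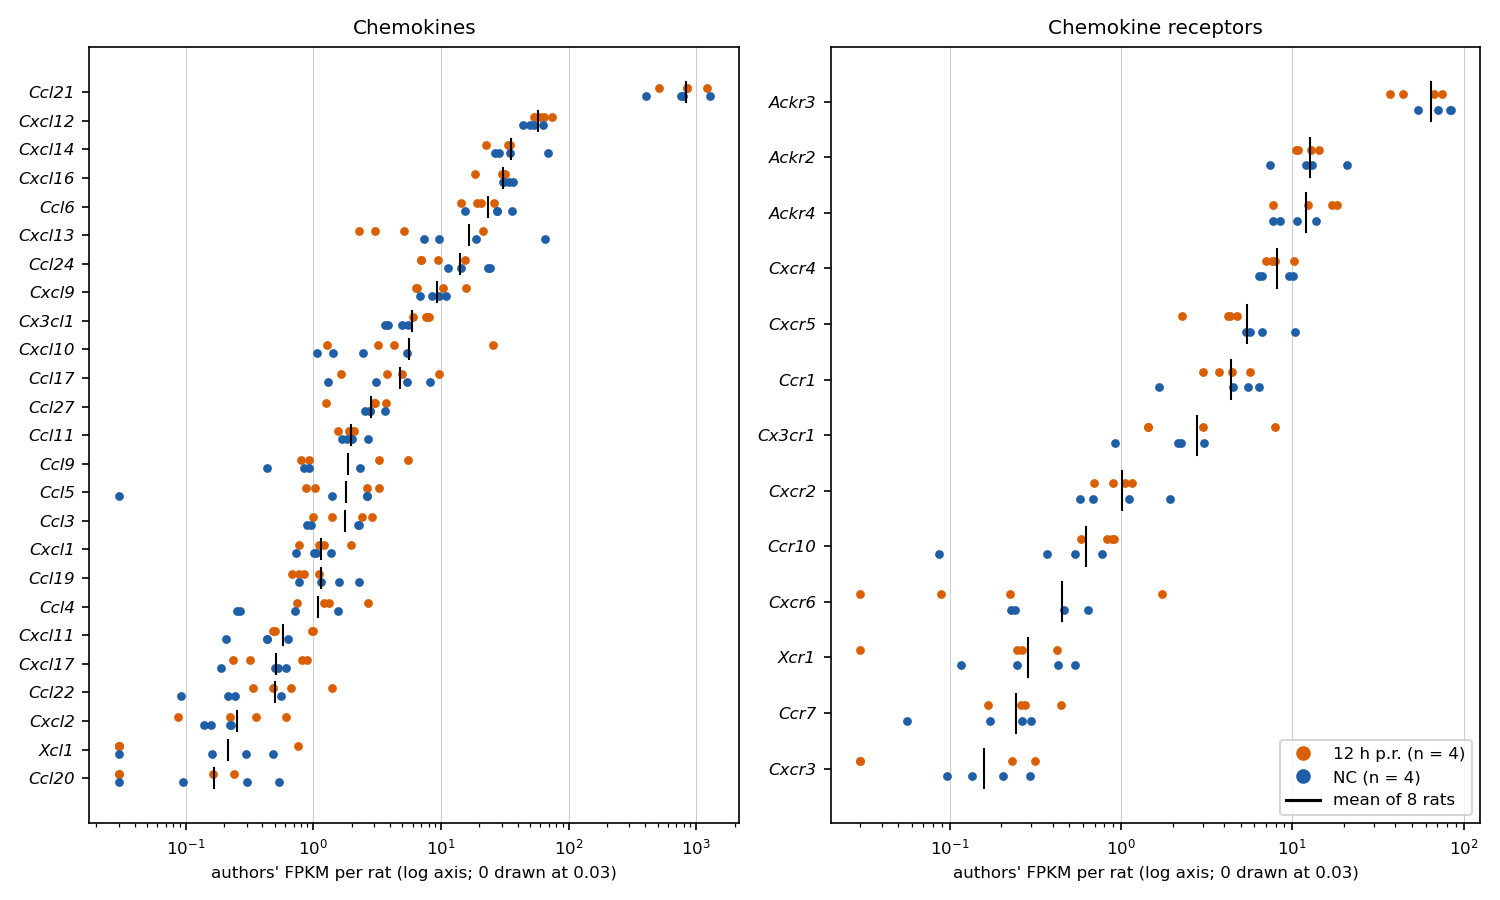
Authors' FPKM in each rat (log axis, values of 0 drawn at 0.03) for ligands (left) and receptors (right) with a mean of at least 0.1 FPKM, with orange points for the 12 hours p.r. rats, blue points for the NC rats, and a black bar at the mean of all 8. *Ccl21* lay above every other gene, *Cxcl13* and *Cxcl10* were spread widely between rats, and the colors overlapped for nearly all genes.

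*Ccl21* (ENSRNOG00000034290), which lymphatic endothelium displays to attract dendritic cells and T cells through CCR7, was the most abundant of all 51. Its FPKM averaged 834 (range 405 to 1272), which placed it 97th of 22250 protein-coding genes. Its counts were 717, 427, 717, and 1031 CPM at 12 hours p.r. and 1065, 340, 642, and 666 CPM in the NC group, so the groups overlapped fully. *Ccl19*, the other CCR7 ligand, averaged 1.15 FPKM on 74 reads, and the ratio of *Ccl21* to *Ccl19* ran from 253 to 1112 between rats. The receptor gene *Ccr7* averaged 0.242 FPKM, on 27 reads in all. Lymphatic endothelial markers (*Lyve1*, *Prox1*, *Flt4*, *Pdpn*, *Reln*, and *Mmrn1*, a list chosen after the values of *Ccl21* were seen) summed to between 353 and 787 CPM, and the lowest and the highest sum were in the same 2 NC rats, replicates 2 and 1, that had the lowest and the highest *Ccl21*. Single markers differed from the sum. NC replicate 1 was the highest rat for *Lyve1*, *Pdpn*, and *Mmrn1*, whereas *Prox1* and *Flt4* were highest in 12 hours p.r. replicate 3 and *Reln* in replicate 4. *Flt4* and *Mmrn1* were lowest in 12 hours p.r. replicate 2, and the others in NC replicate 2. *Prox1* was at 14.4 to 19.0 CPM at 12 hours p.r. and at 8.46 to 12.4 CPM in the NC group. The part of lymphatic endothelial cells in the spread of *Ccl21* was not tested. Between the groups *Ccl21* differed by 0.09 on the log2 scale (standard error 0.35, Benjamini-Hochberg adjusted p = 0.952 in edgeR), and by −0.13 without NC replicate 2 or without 12 hours p.r. replicate 4.

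*Cxcl12*, the ligand that retains stem cells and leukocytes in tissue niches, came next among ligands at 57.6 FPKM (44.1 to 73.7). It was counted at 326, 348, 291, and 402 CPM at 12 hours p.r. and at 240, 342, 294, and 271 CPM in the NC group. The running group was at 342 ± 46.6 CPM and the control group at 287 ± 43.3 CPM (SD, n = 4 rats each), which is 0.25 on the log2 scale (standard error 0.15, edgeR adjusted p = 0.625). It was 0.35 without NC replicate 2, where the unadjusted p passed 0.05, and 0.17 without 12 hours p.r. replicate 4. *Cxcr4*, its signaling receptor, averaged 8.16 FPKM. It was counted at 13.5, 17.9, 12.3, and 13.9 CPM against 11.7, 17.7, 11.2, and 16.7 CPM, with the groups level (log2 fold change 0.01, standard error 0.19). *Ackr3*, the atypical receptor that scavenges CXCL12, was the receptor gene with the highest level at 64.5 FPKM (37.4 to 84.2). It was counted at 73.3, 131, 85.9, and 146 CPM at 12 hours p.r. against 163, 106, 137, and 162 CPM in the NC group. The low values were those of 12 hours p.r. replicates 1 and 3, and the log2 fold change was −0.39 with a standard error of 0.24 (edgeR adjusted p = 0.643). These are a rat with bone markers and the rat with high muscle markers, and the log2 fold change was −0.24 without the first and −0.29 without the second. It was −0.56 without 12 hours p.r. replicate 4, where the unadjusted p passed 0.05. Per rat, *Ackr3* was 4.92 to 12.6 times *Cxcr4* in FPKM, and *Cxcl12* was 5.23 to 9.33 times *Cxcr4*.

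The following ligands in order of level were *Cxcl14*, *Cxcl16*, *Ccl6*, *Cxcl13*, and *Ccl24*, whose FPKM ranges overlapped from each gene to the next. *Cxcl14*, a homeostatic chemokine of epithelium and stroma, averaged 35.5 FPKM and was counted at 55.9, 56.8, 36.4, and 54.2 CPM at 12 hours p.r. and at 46.0, 43.3, 111, and 56.2 CPM in the NC group. Its high value was that of NC replicate 3, one of the rats with bone markers, and without both of those rats its log2 fold change moved from −0.34 to 0.02. *Cxcl16*, a membrane-anchored ligand of CXCR6 that also takes up oxidized lipoprotein, averaged 30.4 FPKM and was counted at 54.5, 52.8, 31.7, and 52.0 CPM against 62.8, 53.1, 52.3, and 58.1 CPM, or −0.25 on the log2 scale (standard error 0.17). The value of 31.7 CPM was that of the rat with high muscle markers, and without it the log2 fold change was −0.09. *Ccl6*, a rodent chemokine of myeloid cells, averaged 23.4 FPKM and was counted at 28.9, 36.2, 20.0, and 26.4 CPM against 49.8, 21.3, 37.9, and 37.6 CPM (log2 fold change −0.40, standard error 0.26). The difference was −0.22 without NC replicate 1 and −0.59 without NC replicate 2, and in the second of these fits the unadjusted p passed 0.05. *Cxcr6*, the receptor of CXCL16, had 36 reads in all.

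The other 2 atypical receptors were next to *Ackr3* among receptors. *Ackr2*, a scavenger of inflammatory CC chemokines, averaged 12.7 FPKM and was counted at 14.8, 14.2, 17.3, and 19.3 CPM at 12 hours p.r. and at 28.3, 10.1, 16.3, and 17.7 CPM in the NC group. *Ackr4*, which clears CCL19, CCL21, and CCL25, averaged 12.0 FPKM and was counted at 15.7, 25.0, 36.8, and 34.6 CPM against 27.8, 15.6, 21.4, and 17.2 CPM. Neither passed the test, and the log2 fold changes were −0.14 and 0.45 with standard errors of 0.27 and 0.28. For *Ackr4* the difference was 0.67 without both rats with bone markers and 0.65 without 12 hours p.r. replicate 1 alone, and it then passed the unadjusted threshold of 0.05 but not the adjusted one. It was 0.29 without 12 hours p.r. replicate 3, the rat with high muscle markers, which had the highest *Ackr4* of all. The lowest FPKM of *Ackr3* was above the highest of *Ackr2* and of *Ackr4*, while the ranges of *Ackr2* and *Ackr4* overlapped.

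Enough counts for a test between the groups were present for 28 genes, 17 ligands and 11 receptors. The other 23 had 0 to 74 reads in total and were not tested. With edgeR's quasi-likelihood test, 3 of the 28 had an unadjusted p value under 0.05, against 9.51% of all 13937 genes tested. *Cx3cl1* was higher at 12 hours p.r. (5.44% of all genes were higher by this rule), and *Ccl24* and *Cxcr5* were lower (4.08% of all genes). With Benjamini-Hochberg adjustment over all genes, 0 of the 28 were under 0.05 (smallest adjusted p = 0.385), as compared with 1 of all genes (0.00718%). The Wald test of DESeq2 had the same 3 genes at an unadjusted p value under 0.05, and after its own adjustment 1 of them, *Cx3cl1*, was under 0.05, against 0.685% of all genes. The share at the unadjusted threshold was near that of all genes. The median log2 fold change was 0.09 over the tested ligands and −0.11 over the tested receptors, with 0.02 over all genes, and 15 of the 28 were higher and 13 lower.

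**Figure D2:**
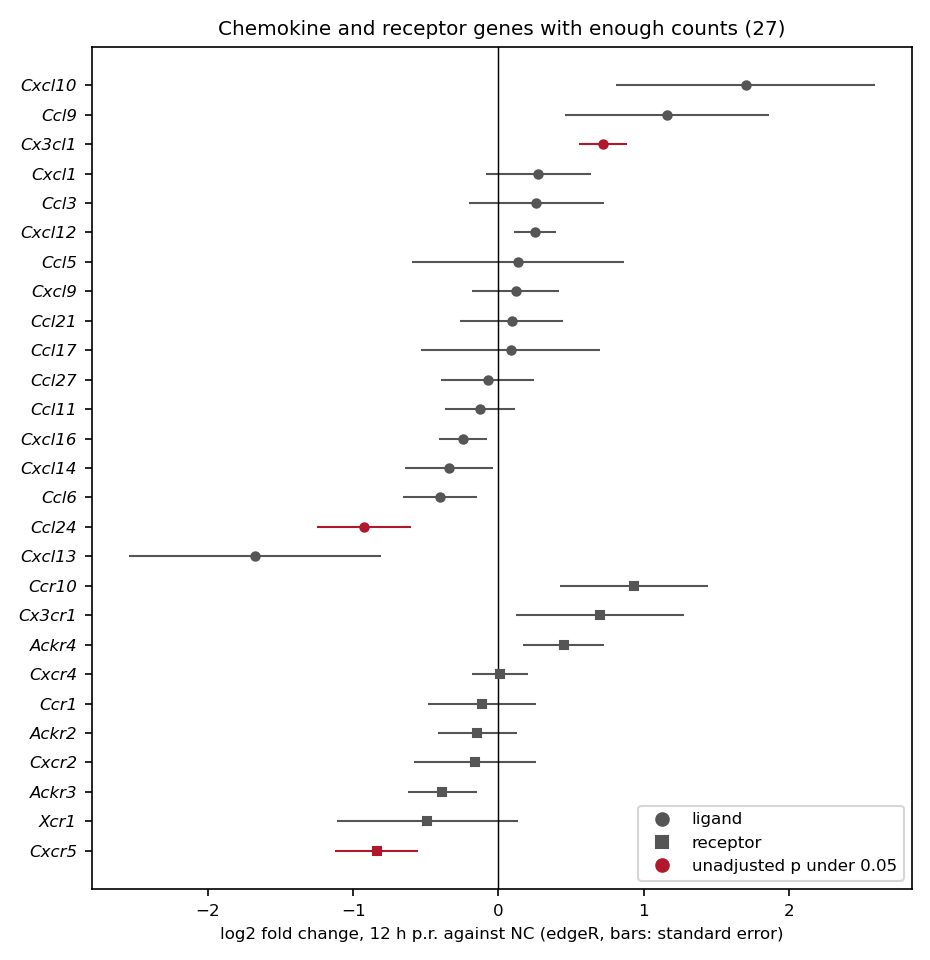
Log2 fold change between the running and NC rats (horizontal axis, bars for the standard error, edgeR) of 27 tested genes, with circles for ligands and squares for receptors. *Cx3cl1*, *Ccl24*, and *Cxcr5*, in red, had an unadjusted p value under 0.05, while the larger changes of *Cxcl10* and *Cxcl13* had standard errors of 0.89 and 0.87.

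*Cx3cl1* (ENSRNOG00000016326) encodes fractalkine, a transmembrane chemokine of endothelium, smooth muscle, and neurons that captures monocytes and is shed by ADAM proteases. The counts were 25.4, 24.1, 18.8, and 24.6 CPM at 12 hours p.r. and 12.0, 17.4, 15.6, and 11.4 CPM in the NC group. Every running rat was above every control rat. The groups were at 23.2 ± 2.99 and 14.1 ± 2.87 CPM (SD, n = 4 rats each). The log2 fold change was 0.72 with a standard error of 0.17, and edgeR gave p = 0.00184 (Benjamini-Hochberg adjusted p = 0.385), where the 2-sided exact permutation test over the 70 splits of the rats gave p = 0.0286, the smallest that 4 rats against 4 allow. DESeq2 gave an adjusted p of 0.0316 for the same counts. Without 1 rat in turn the log2 fold change lay between 0.63 and 0.84, and it was 0.81 without the rat with high muscle markers and 0.73 without both rats with bone markers. Groups that do not overlap were found for 2 of the 28 genes, *Cx3cl1* and *Cxcr5*, and for 6.06% of all genes tested.

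In RefSeq, *Cx3cl1* lies between *Ccl17* and *Ccl22*, which both encode ligands of CCR4. *Ccl17* was counted at 1.42, 2.77, 1.07, and 0.469 CPM at 12 hours p.r. and at 0.882, 0.368, 2.34, and 1.53 CPM in the NC group, a difference of 0.08 on the log2 scale (standard error 0.61). *Ccl22* had 62 reads and was not tested by the main rule. It was counted at 2.46, 1.19, 0.595, and 0.845 CPM against 0.160, 0.981, 0.378, and 0.425 CPM, so 1 control rat reached into the running group (2-sided exact permutation test, p = 0.0857). *Ccl22* is given here for its position, and was chosen after its values were seen. *Ccr4*, the receptor gene of both, had 1 read in the 8 rats.

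*Cx3cr1*, the only receptor of fractalkine and a gene of monocytes and macrophages, was counted at 1.94, 10.5, 1.90, and 4.04 CPM at 12 hours p.r. and at 2.97, 1.23, 2.87, and 4.08 CPM in the NC group. A single rat, 12 hours p.r. replicate 2, lay above all the others. The log2 fold change of 0.70 had a standard error of 0.58, and without that rat it was −0.08. Endothelial markers stood beside *Cx3cl1* as follows. There were 9 in the table and tested, and 7 were higher and 2 lower at 12 hours p.r. By edgeR, *Egfl7*, *Tie1*, and *Plvap* were higher, with log2 fold changes of 0.40, 0.31, and 0.41, and *Emcn* was lower (−0.40). All of these had an unadjusted edgeR p value under 0.05, and none of the 9 had an adjusted one. That is 3 higher and 1 lower of 9, where 5.44% of all genes tested were higher and 4.08% lower by this rule. By DESeq2, 4 of the 9 had an unadjusted p value under 0.05, against 1273 of 13937 over all genes. DESeq2 gave *Egfl7* an adjusted p of 0.0150, and no other endothelial marker was under 0.05 after its adjustment. The markers summed to 2199, 1812, 2304, and 2250 CPM at 12 hours p.r. and to 1886, 1828, 1890, and 1990 CPM in the NC group. None of the markers was at 0, and their part in the difference of *Cx3cl1* was not tested.

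**Figure D3:**
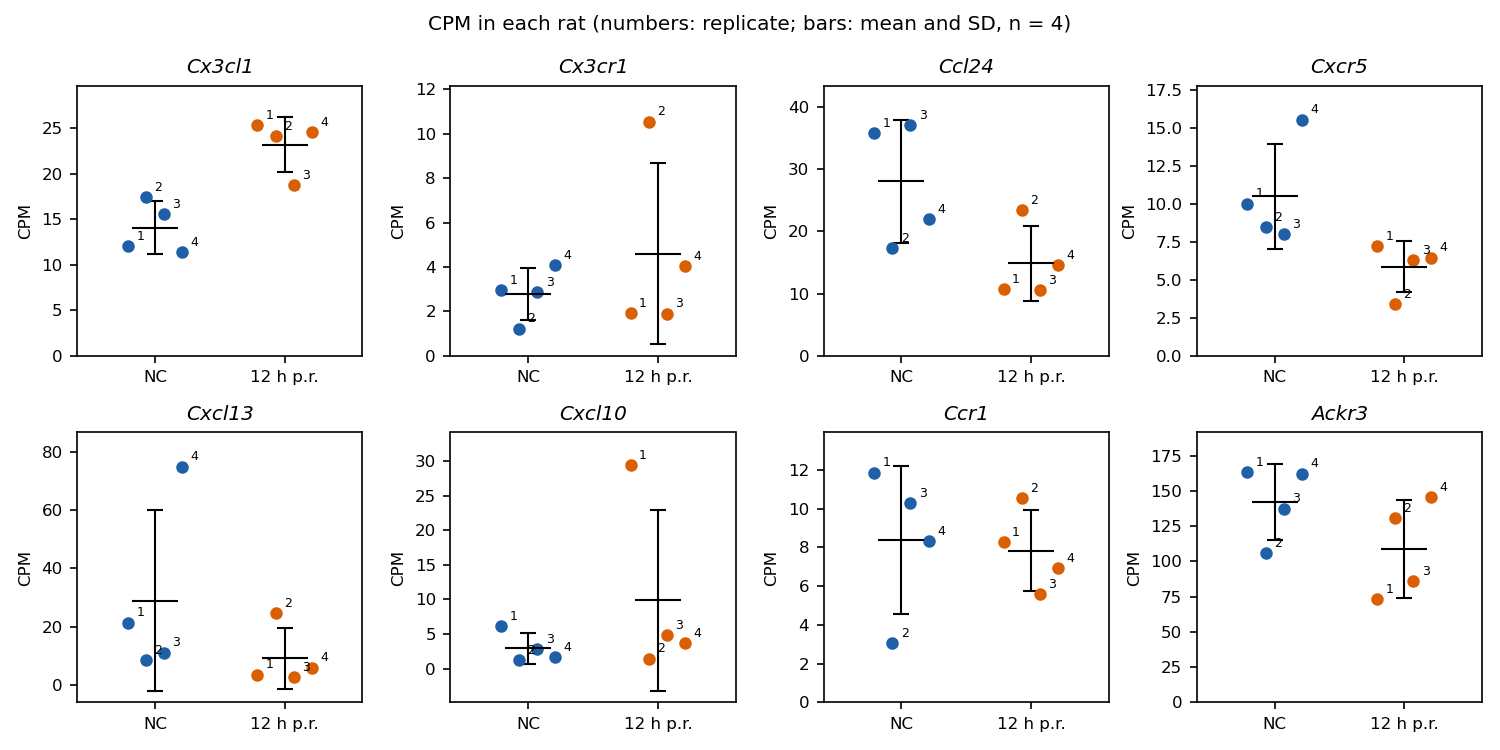
CPM (vertical axis) in each NC rat (blue) and each 12 hours p.r. rat (orange) for 8 genes, with replicate numbers beside the points and the mean and SD as bars (n = 4). *Cx3cl1* and *Cxcr5* did not overlap between the groups, *Ccl24* overlapped through 12 hours p.r. replicate 2, and single rats set the means of *Cxcl13*, *Cxcl10*, and *Cx3cr1*.

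*Ccl24* (ENSRNOG00000031162), eotaxin-2, attracts eosinophils through CCR3 and is made by alternatively activated macrophages among other cells. Its counts were 10.7, 23.4, 10.6, and 14.6 CPM at 12 hours p.r. and 35.8, 17.3, 37.1, and 22.01 CPM in the NC group. The groups overlapped, because 12 hours p.r. replicate 2 lay above NC replicates 2 and 4. With 14.8 ± 6.03 against 28.03 ± 9.88 CPM (SD, n = 4 rats each), the log2 fold change was −0.92 (standard error 0.32, edgeR p = 0.0185, Benjamini-Hochberg adjusted p = 0.450), and the 2-sided exact permutation test gave p = 0.0857. The unadjusted edgeR p no longer passed 0.05 without NC replicate 1 or without NC replicate 3, where the log2 fold changes were −0.78 and −0.76, nor without both rats with bone markers, where it was −0.64. *Ccl11*, the other eotaxin with reads, was counted at 1.596 to 2.11 CPM against 1.72 to 2.72 CPM (log2 fold change −0.13, standard error 0.24). The shared receptor gene *Ccr3* had 10 reads, all of them in 2 NC rats.

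Values of other cells stood beside *Ccl24* as follows. Macrophage markers summed to 721 to 2937 CPM at 12 hours p.r. and 980 to 4265 CPM in the NC group, and *Marco* had no read. Of the 11 tested, 10 were lower and 1 was higher at 12 hours p.r., with a median log2 fold change of −0.67. By edgeR 0 of them had an unadjusted p value under 0.05, against 9.51% of all genes tested. By DESeq2 there were 4 of the 11 (*C1qc*, *Cd163*, *Mrc1*, and *C1qb*), with 0 after adjustment. Over all genes, 1273 of 13937 had an unadjusted DESeq2 p value under 0.05. With the mean of the macrophage markers as a covariate the log2 fold change of *Ccl24* was −0.63, against −0.92 without it, at an unadjusted p value under 0.05. The covariate came from the same libraries, and most of its markers were lower at 12 hours p.r. The part of macrophages in the difference of *Ccl24* was therefore not tested. Mast cell and eosinophil markers summed to 46.4 to 85.5 CPM at 12 hours p.r. and 70.4 to 107 CPM in the NC group. Nearly all of this came from mast cell genes. The eosinophil genes *Epx* and *Prg2* had 26 and 2 reads in all and were not tested. Of the 5 tested, 4 were lower and 1 was higher at 12 hours p.r. *Cpa3*, a mast cell protease gene, was the only one at an unadjusted edgeR p value under 0.05, with a log2 fold change of −1.11. In the fit with macrophage markers *Cx3cr1*, a receptor of macrophages, had a log2 fold change of 1.27 and passed the same threshold, which it did not pass without the covariate.

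*Cxcr5* (ENSRNOG00000012430) is known as the receptor that brings B cells and follicular helper T cells to CXCL13. In the running rats it was counted at 7.25, 3.43, 6.31, and 6.48 CPM and in the NC rats at 10.02, 8.46, 8.01, and 15.5 CPM. Every running rat was below every control rat. The log2 fold change was −0.84 (standard error 0.29, edgeR p = 0.0168, Benjamini-Hochberg adjusted p = 0.443), with p = 0.0286 by the 2-sided exact permutation test. The log2 fold change was −0.59, just short of the unadjusted threshold of 0.05, without NC replicate 4. Its mean of 5.45 FPKM stood beside B cell markers that were nearly absent, with a sum of 0.680 to 1.68 CPM over 5 genes and none with enough counts for a test. T and NK cell markers summed to 13.9 to 56.1 CPM, of which *Cd4*, a gene that rat macrophages also express, made up 29.2 CPM on average. The T cell receptor genes *Cd3e*, *Cd3d*, and *Cd3g* had 25, 12, and 21 reads in all 8 rats. In RefSeq *Cxcr5* overlaps *Bcl9l*, which was counted at 67.9 CPM on average in the NC group and differed by 0.27 on the log2 scale (standard error 0.13). It was not stated whether the counting used the strand, so reads of overlapping genes may be shared, and the values of *Cxcr5* are uncertain for that reason. The same holds for *Ackr4* with *Acad11*, *Ccr10* with *Cntnap1*, *Ccl27* with *Il11ra1*, *Cxcl10* with *Art3*, and *Cxcl16* with *Zmynd15*. RefSeq overlaps were also listed for *Cxcl11* with *Art3*, *Cxcr6* with *Fyco1*, and *Xcr1* with *Cacul1-ps1*. *Ccl6*, *Ccl3*, *Cx3cr1*, and some genes with few reads overlapped loci without a gene name.

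*Cxcl13*, the CXCR5 ligand that organizes B cell follicles, differed widely between rats. It was counted at 3.49, 24.6, 2.62, and 5.91 CPM at 12 hours p.r. and at 21.4, 8.46, 11.1, and 74.9 CPM in the NC group. The largest value, in NC replicate 4, was in the rat that also had the highest *Cxcr5*, and the groups overlapped through 12 hours p.r. replicate 2. The log2 fold change was −1.68 with a standard error of 0.87 (edgeR adjusted p = 0.577). It was −0.59 without NC replicate 4 and −2.84 without 12 hours p.r. replicate 2, so its size rested on single rats, and only in the second of these fits did the unadjusted p pass 0.05.

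The ligands of CXCR3 are induced by interferons and draw activated T cells. *Cxcl10* was counted at 29.4, 1.45, 4.88, and 3.66 CPM at 12 hours p.r. and at 6.17, 1.23, 2.79, and 1.61 CPM in the NC group, and is named here because of the first of these values, after it was seen. The difference of 1.70 on the log2 scale (standard error 0.89) fell to 0.16 when that rat, 12 hours p.r. replicate 1, was left out. It was 2.06 without 12 hours p.r. replicate 2 and 2.35 without NC replicate 1, and the unadjusted p passed 0.05 in both of these fits. *Cxcl9* was also highest in that rat, at 23.9 CPM. Its other running rats had 9.62 to 15.6 CPM and the NC rats 10.4 to 16.4 CPM. *Cxcl11* had 68 reads and *Cxcr3* had 20.

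Among the inflammatory ligands and receptors of neutrophils and monocytes, none passed the test. *Cxcl1* and *Cxcl2* attract neutrophils through CXCR2. *Cxcl1* was counted at 1.04, 1.84, 0.714, and 1.13 CPM at 12 hours p.r. and at 1.28, 0.981, 0.680, and 0.935 CPM in the NC group (log2 fold change 0.27, standard error 0.36, and −0.0061 without 12 hours p.r. replicate 2). *Cxcl2* had 20 reads, 0.0939 to 0.659 CPM per rat at 12 hours p.r. and 0.151 to 0.245 CPM in the NC group, with at most 5 reads in a rat. *Cxcr2* was counted at 1.55, 0.922, 1.19, and 1.41 CPM at 12 hours p.r. and at 2.57, 1.47, 0.906, and 0.765 CPM in the NC group, a difference of −0.16 on the log2 scale (standard error 0.42). Neutrophil markers summed to 7.77 to 16.9 CPM at 12 hours p.r. and to 8.58 to 13.9 CPM in the NC group.

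*Ccr1*, a receptor of monocytes, macrophages, and neutrophils, binds CCL3 and CCL5 among others. It was counted at 8.28, 10.5, 5.59, and 6.95 CPM at 12 hours p.r. and at 11.9, 3.07, 10.3, and 8.33 CPM in the NC group. The ranges overlapped fully, and the log2 fold change was −0.11 with a standard error of 0.37. Its ligands were low. *Ccl3* was counted at 2.20, 1.84, 1.07, and 0.751 CPM at 12 hours p.r. and at 0.721, 1.72, 1.74, and 0.680 CPM in the NC group. *Ccl5* was counted at 1.81, 1.45, 0.476, and 0.563 CPM against 1.44, 0, 1.43, and 0.765 CPM. Neither separated the groups, and the log2 fold changes were 0.26 and 0.13 with standard errors of 0.47 and 0.73. For *Ccl3* the difference was −0.0024 without 12 hours p.r. replicate 1. *Ccl9*, a rodent ligand of CCR1, was counted at 4.27, 7.11, 1.19, and 1.03 CPM at 12 hours p.r. and at 0.561, 1.104, 3.02, and 1.19 CPM in the NC group. The first pair of running rats was high and the other pair was within the control range, and the log2 fold change of 1.16 had a standard error of 0.70. It was 0.51 without 12 hours p.r. replicate 2 and 1.82 without NC replicate 3, a rat with bone markers, where the unadjusted p passed 0.05.

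The remaining tested genes showed no call either. *Ccr10*, a receptor of skin-homing lymphocytes, was at 1.04 to 1.596 CPM at 12 hours p.r. and 0.151 to 1.35 CPM in the NC group (log2 fold change 0.93, standard error 0.51), and is named after its values were seen. The lowest value, on 2 reads, was that of NC replicate 3, a rat with bone markers, and the log2 fold change was 0.56 without it. Without NC replicate 2 it was 1.297, and the unadjusted p passed 0.05. Its ligand gene *Ccl27* was at −0.07 on this scale (standard error 0.32). *Xcr1*, which marks the dendritic cells that cross-present antigen, lay between 0.119 and 2.29 CPM (log2 fold change −0.49, standard error 0.62). The difference was −0.12 without 12 hours p.r. replicate 3 and −0.88 without 12 hours p.r. replicate 1. Of 7 tested dendritic cell markers, *Xcr1* among them, 6 were lower and 1 was higher at 12 hours p.r. By edgeR, 1 of the 7 had an unadjusted p value under 0.05, against 9.51% of all genes, and 0 had an adjusted one. This was *Clec9a*, at −0.63 on the log2 scale (standard error 0.21), and its groups did not overlap. By DESeq2, 3 of the 7 had an unadjusted p value under 0.05 (*Clec9a*, *Cd74*, and *RT1-Da*, all lower), against 1273 of 13937 over all genes. The smallest DESeq2 adjusted p among these 3 was 0.252.

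The genes that were not tested had few reads. Besides those given above, *Ccl4* had 50, *Cxcl17* 31, *Ccl20*, *Cxcl6*, and *Ccr6* 12 each, *Xcl1* 8, *Ccr9* 4, *Ccl28* 2, and *Ccl1* and *Cxcr1* 1 each. With no filter on low counts, the genes at an unadjusted p value under 0.05 were the same 3 and *Ccl22*, out of 47 tested. In that fit 1448 of all 21046 genes were under 0.05. For the other genes with few reads no difference was detectable at this depth.

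The rats differed from one another across many of these genes at once. Of the 28 tested genes, NC replicate 2 had the lowest count in 8 and the highest in 0, and 12 hours p.r. replicate 3 had the lowest in 7 and the highest in 1. NC replicate 1 had the highest count in 7, among them *Ccl21*, *Ccl6*, *Ackr3*, and *Ccr1*, and 12 hours p.r. replicate 2 had it in 6, among them *Cxcr4* and *Cx3cr1*. The sum of macrophage markers was 4015 CPM in NC replicate 1 and 2937 CPM in 12 hours p.r. replicate 2, and 980 and 721 CPM in the pair of rats with the most low counts. The highest sum, 4265 CPM, was that of NC replicate 4, which had the highest count in 4 genes and the lowest in 3. Much of each sum was the single gene *Lyz2*. It was at 2682 CPM in NC replicate 1, 2005 CPM in 12 hours p.r. replicate 2, and 3075 CPM in NC replicate 4. In NC replicate 2 it was at 540 CPM and in 12 hours p.r. replicate 3 at 344 CPM. The part of macrophages in the spread between rats was not tested. The ratio of the highest to the lowest rat was 1.603 for *Cxcr4* and 1.68 for *Cxcl12*, and it was 24.0 for *Cxcl10* and 28.6 for *Cxcl13*.

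**Figure D4:**
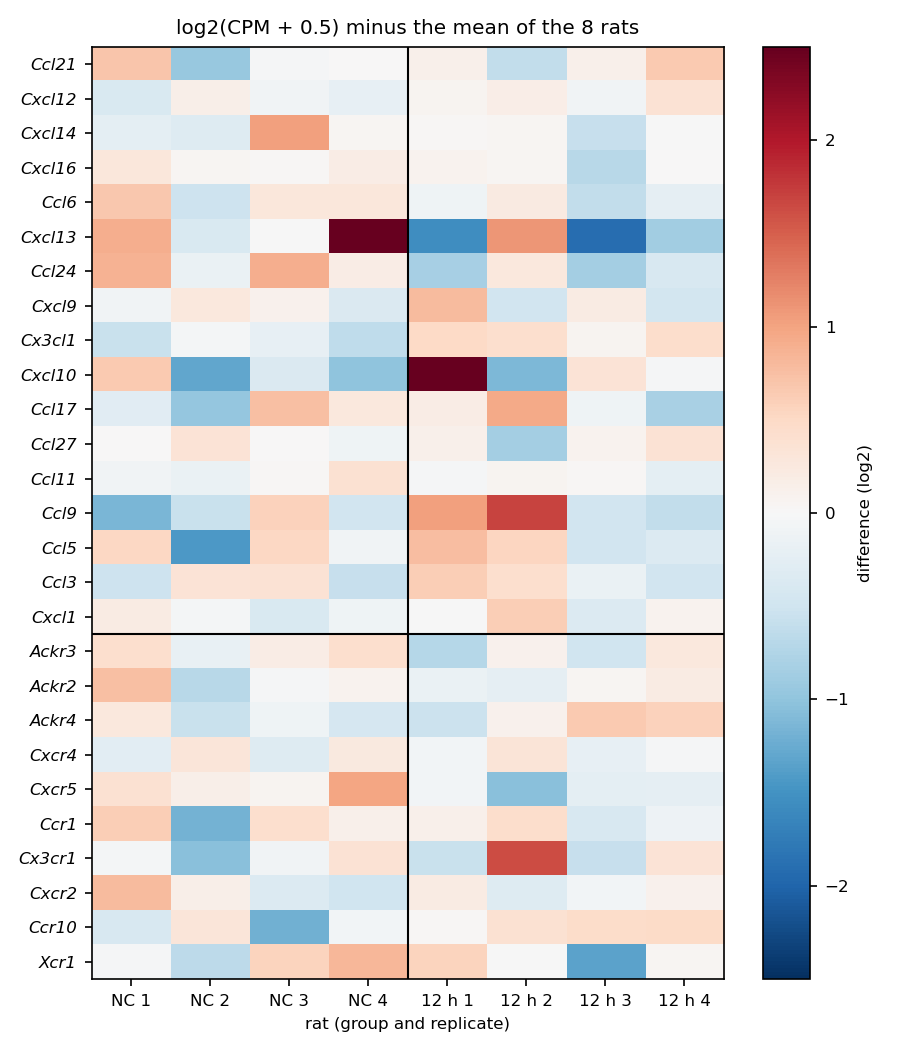
Difference of log2(CPM + 0.5) in each rat (columns) from the mean of the 8 rats for 27 tested genes (rows, ligands above the line and receptors below it, each by falling FPKM). NC replicate 2 and 12 hours p.r. replicate 3 were low in many genes, and the deepest colors are those of *Cxcl13* in NC replicate 4 and *Cxcl10* in 12 hours p.r. replicate 1.

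The partners of the chemokine system were followed as lists. Of 26 tested genes that act downstream of the receptors (G proteins, arrestins, kinases, and migration genes), 2 were higher at an unadjusted p value under 0.05 and 0 were lower, where 5.44% of all genes tested were higher and 4.08% lower. These were *Arrb1*, which encodes a β-arrestin, at a log2 fold change of 0.43 with a standard error of 0.14, and *Plcb3*, a phospholipase C, with 0.29 (standard error 0.09). Of 17 tested genes for the presentation and processing of chemokines, 0 were higher and 2 were lower. *Sdc4*, a heparan sulfate proteoglycan, was at −0.78 on the log2 scale (standard error 0.28) and *Mmp2*, a protease that clips CXCL12, was at −0.66 (standard error 0.24). A list of inducers and regulators of chemokine expression, with inhibitors such as *Nfkbia* and *Tnfaip3* among them, had 15 tested genes. Of these, *Irf1*, an interferon-induced transcription factor, was higher (0.59, standard error 0.24). *Nfkbiz*, a nuclear regulator of NF-κB, was lower (−0.51, standard error 0.18). *Rarres2*, the precursor of the chemoattractant chemerin, was lower (−0.41, standard error 0.13). It was the single call among 7 tested genes of chemoattractants and receptors outside the symbol rule. The medians of these 4 lists were 0.06, −0.07, 0.03, and −0.08, and 0 genes in them had an edgeR adjusted p value under 0.05. Together 7 of 65 genes (10.8%) passed the unadjusted threshold, against 9.51% of all genes, a share near the background.

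**Figure D5:**
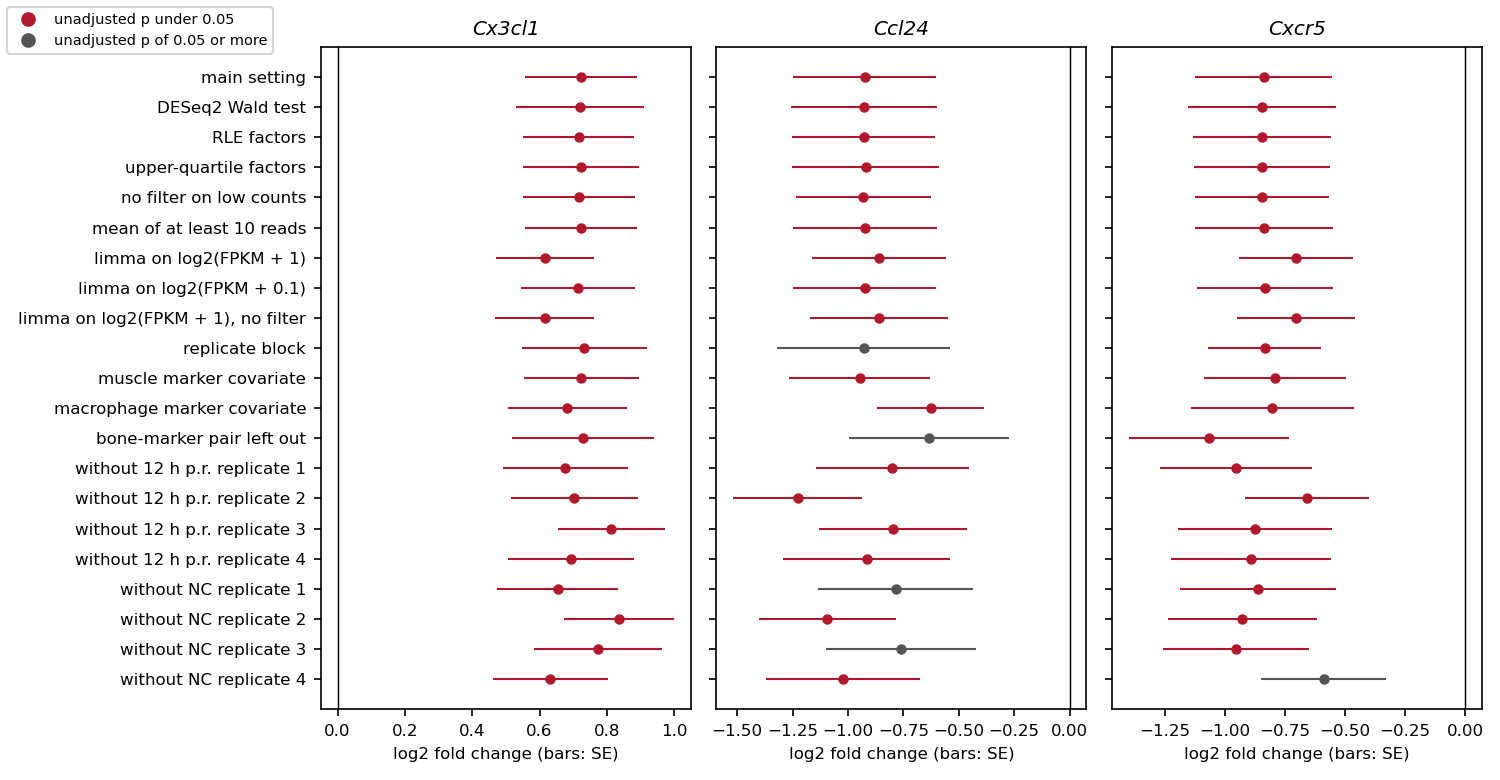
Log2 fold change (bars for the standard error) of *Cx3cl1*, *Ccl24*, and *Cxcr5* under the main setting and each alternative, with red for an unadjusted p value under 0.05. The sign was the same in every row for the 3 genes, and the p value stayed under 0.05 in all 20 alternatives for *Cx3cl1*, in 16 for *Ccl24*, and in 19 for *Cxcr5*.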

How the data were processed

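Stranded polyadenylate libraries of 8 right Achilles tendons were aligned by the authors to Rnor_6.0 with Hisat2 2.1.0 and counted with featureCounts 1.6.3, and the counts were deposited without normalization. The FPKM values of the authors are these counts divided by gene length and a factor per rat. How reads of several genes or of the other strand were treated is not given in the sources used here. The authors' table of their own comparison was not used.

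Low counts were filtered with filterByExpr of edgeR 4.0.16 in R 4.3.3, scaled by TMM, and tested with the quasi-likelihood test and Benjamini-Hochberg adjustment over 13937 genes. Permutation tests used log2(CPM + 0.5). The script was tested on simulated data. Alternatives were DESeq2 1.42.0, limma 3.58.1 on log2(FPKM + 1) or log2(FPKM + 0.1), other factors and filters, the replicate number as a block, marker covariates, and fewer rats.

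A tested receptor enters the counts and is not reported here by itself. The genes and lists were chosen with earlier results of these data known. Values per rat were given for genes with p under 0.05, without overlap, among the 6 highest ligands or receptors by FPKM, or named by the study, and for their tested partners. Promoters came from RefSeq (GRCr8), and no coordinates of Rnor_6.0 are given.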

Additional observations from a re-analysis of the deposited data

Results flagged for a closer look

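In each group of 4 rats, the highest and the lowest log2(CPM + 0.5) of the 28 tested genes were compared with the other rats. The lowest rat lay far from the rest of its group in 3 of 56 groups, where about 2.8 would be set apart by chance. All 3 were 12 hours p.r. replicate 3, the rat with the highest skeletal muscle markers. In this rat *Cxcl16* was at 5.01, against 5.71 to 5.78 in the other running rats, *Cxcl14* was at 5.21, against 5.77 to 5.84, and *Cx3cl1* was at 4.27, against 4.62 to 4.69. For *Cx3cl1*, that lowest running rat was still above every NC rat.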

How the results depend on the processing

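The number of genes at an adjusted p value under 0.05 was 0 under edgeR and under every alternative except DESeq2, where it was 1 (*Cx3cl1*). At an unadjusted p value under 0.05 the number was 3, and 3 to 4 under the alternatives that kept all rats, except for 5 with macrophage markers as a covariate, where the receptor median was 0.15. With that covariate 1169 of all 13937 genes were under 0.05. The tested genes of the family numbered 28 in the main setting, 39 with limma on log2(FPKM + 0.1), and 47 with no filter on low counts. Without 1 rat in turn the number ran from 2 to 6, the ligand median from −0.13 to 0.14, and the receptor median from −0.15 to 0.16. Over all genes it ran from 879 of 14007 (without NC replicate 4) to 1580 of 14236 (without 12 hours p.r. replicate 3). The number for the family was 6 without NC replicate 2 and 5 without 12 hours p.r. replicate 2. Over all genes it was 1272 of 14196 and 1443 of 14189 in these fits. The genes added were *Cxcl12*, *Ccl6*, and *Ccr10* in the first case and *Cxcl10* and *Cxcl13* in the second.

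The sign turned for several genes that were not called. With macrophage markers as a covariate the log2 fold change was 0.13 for *Ackr2*, 0.15 for *Xcr1*, 0.43 for *Ccr1*, −0.079 for *Cxcl9*, and −0.0017 for *Cxcr4*. Without both rats with bone markers it was −0.18 for *Cxcl9*, −0.068 for *Cxcr4*, and 0.015 for *Cxcl14*, and with limma on log2(FPKM + 0.1) it was 0.019 for *Ccr1*. Without 1 rat in turn the ranges that crossed 0 were −0.22 to 0.28 for *Cxcl9*, −0.23 to 0.42 for *Ccl5*, −0.0024 to 0.51 for *Ccl3*, −0.25 to 0.16 for *Ccl27*, −0.083 to 0.95 for *Cx3cr1*, −0.0061 to 0.45 for *Cxcl1*, −0.11 to 0.12 for *Cxcr4*, −0.44 to 0.55 for *Ccl17*, −0.38 to 0.10 for *Ccr1*, −0.13 to 0.40 for *Ccl21*, −0.34 to 0.16 for *Ackr2*, −0.37 to 0.31 for *Cxcr2*, −0.49 to 0.065 for *Cxcl14*, and −0.20 to 0.028 for *Ccl11*. The causes were not tested.

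With the replicate number as a block, 3 genes were at an unadjusted p value under 0.05 (2 higher and 1 lower), *Ccl24* had a p of 0.0522 and *Cxcl10* a p of 0.0116 by edgeR, and 974 of all genes were under 0.05, against 1326 without it. The numbers mark different rats, and same-numbered rats did not deviate together in every pair (correlations of 0.07, −0.20, 0.13, and 0.09), so no pairing was assumed. A p value above the threshold does not show that a gene was unchanged. The depth limits statements on the 23 genes that were not tested.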
